A study of Mus musculus with 18 samples.

Results

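The killer cell lectin-like receptors are membrane proteins of natural killer (NK) and T cells that read MHC class I, stress-induced and C-type lectin ligands on neighbouring cells. The 10 genes followed here, of 32285 in the deposited matrices, were taken by name: Klrd1, Klrc1, Klrc2, Klre1, Klrk1, Klra1, Klra7, Klrb1a, Klrb1c and Klrg1. Klrd1 encodes CD94, which pairs with the inhibitory NKG2A chain (Klrc1) or the activating NKG2C chain (Klrc2) and binds Qa-1, a nonclassical MHC class I molecule made from H2-T23. Klrk1 encodes NKG2D, an activating receptor for stress ligands that signals through the adaptors Hcst and Tyrobp. Klra1 and Klra7 encode the inhibitory Ly49 receptors Ly49A and Ly49G, which bind classical MHC class I, and Klre1 encodes a further lectin-like receptor that pairs with the Klri chains. Klrb1a and Klrb1c belong to the NKR-P1 family, and Klrb1c is the NK1.1 antigen used to mark mouse NK cells. Klrg1 is an inhibitory receptor for cadherins. Lymphocytes that live within the gut epithelium, above all gamma-delta T cells and T cells with CD8 alpha homodimers, are known for carrying several of these receptors.

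The samples were CD45-enriched mouse cells from the small bowel epithelium, from the small bowel lamina propria and from whole colon, in which both layers were combined. Cells of 1 St8sia6 knockout (KO), 1 heterozygote (het) and 2 wild-type (WT) mice were hashtagged by genotype and captured together in each of 3 runs, so a KO or het value stands for 1 mouse and a WT value for a pool of 2. St8sia6 is a sialyltransferase gene, and strain, age, sex and the deleted stretch are not given in the sources used here. The 18 samples are the 9 gene expression libraries (5-prime droplet RNA-seq) and their 9 hashtag libraries.

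T cells were taken as cells with a Cd3e UMI (1 counted RNA molecule) and no Cd79a UMI, and were split by UMIs of 4 further genes. Gamma-delta T cells had Trdc without Cd4 or Cd8b1 (4889 cells). Cd8a Cd8b1 T cells had Cd8b1 without Cd4 or Trdc (4681 cells), and Cd8a-only T cells had Cd8a without the other 3 genes (4186 cells). Cd4 Cd8a T cells had both of those genes without Cd8b1 or Trdc (1182 cells), Cd4 T cells had Cd4 alone (1725 cells), and 2386 T cells had none of the 4. Ncr1 cells, the gate for NK cells and related innate lymphoid cells, had an Ncr1 UMI without Cd3e or Cd79a (561 cells). The 21473 cells with Cd79a and neither Cd3e nor Ncr1, mostly of the B lineage, served as background, because free RNA in droplets gives stray UMIs there. A gate on UMIs can misplace a cell whose defining RNA was not captured. The Cd8a-only gate may thus hold cells with uncaptured Cd8b1 and gamma-delta T cells with Cd8a and uncaptured Trdc.

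Each tissue had 9 barcode endings, 3 libraries of 3 genotypes. UMIs were summed per ending and population wherever at least 10 cells were present and are given as CPM, the usual scaling of counts to a common library total. In such sums fewer positive cells and less RNA per cell cannot be told apart. Of 59338 cells kept, 16705 came from the epithelium, 21347 from the lamina propria and 21286 from the colon, with 6316359 to 30418604 UMIs per ending. St8sia6 in all cells of the lamina propria averaged 35.3 ± 3.94 CPM for KO, 45.6 ± 3.63 CPM for het and 60.6 ± 7.86 CPM for WT (SD, n = 3 each). KO colon had 8.43 ± 1.32 CPM, het colon 12.6 ± 1.80 CPM and WT colon 15.0 ± 3.49 CPM, and KO, het and WT epithelium had 3.04 ± 1.84, 5.18 ± 2.84 and 3.49 ± 1.56 CPM, within the spread of each other. The KO mean was the lowest of the 3 genotypes in each tissue but was not 0, and whether the counted reads lie outside the deleted stretch is not known here. The hashtag matching the genotype led in 84.4% and 72.9% of cells in WT epithelium libraries 1 and 2. It led in 55.5% of cells in WT lamina propria library 3, against at least 95.6% in every other ending. Fewer cells met the stricter rule of a hashtag share of 80% of at least 10 hashtag UMIs. They were 77.9% of cells in epithelium, 59.3% in lamina propria and 41.6% in colon. In colon libraries 1, 2 and 3 they were 18.0%, 25.6% and 30.0% for KO and 63.2%, 96.7% and 94.7% for het. WT colon had 30.8%, 44.2% and 32.2%. Genotype ratios in epithelium are also given with library 1 or 2 left out. The gamma-delta gate kept its lineage against the Cd8a Cd8b1 gate. Tcrg-C1, a gamma chain gene, had 394, 316 and 264 CPM in gamma-delta T cells of epithelium, lamina propria and colon. Cd8a Cd8b1 T cells there had 35.9, 9.3 and 24.9 CPM. The Ncr1 gate was mixed across tissues, with Eomes, a factor of NK cells, at 61.5, 8.8 and 65.0 CPM in epithelium, lamina propria and colon.

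All 10 genes lie on chromosome 6 (GRCm38.p6). Klrg1 stands apart at chr6:122270596-122282833. The others follow at Klrb1a, chr6:128609227-128622934, Klrb1c, chr6:128778485-128788641, Klre1, chr6:129559365-129585828, Klrd1, chr6:129588092-129598775, Klrk1, chr6:129610323-129623903, Klrc2, chr6:129649602-129660737, Klrc1, chr6:129666015-129682852, Klra7, chr6:130218605-130233322, and Klra1, chr6:130363918-130386874. This stretch is the NK gene complex, whose Klra, Klrc and Klrb1 genes are close copies, so a read of a shared stretch may have been counted for a neighbour or for neither.

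RefSeq promoter windows (GRCm38.p6, the 250 bases before the start) were found for 8 members and for neither Klrd1 nor Klrg1. This start is the one used for each window and need not be the outer end of the gene span given above. The Klrc1 window lies inside its gene span, and the Klrk1 window overlaps the end of its gene span. The windows of 4 members are shown as examples of genes that were highest in Ncr1 cells of the epithelium, as described below: Klrb1a at chr6:128622935-128623184, Klrb1c at chr6:128788642-128788891, Klrk1 at chr6:129623865-129624114 and Klrc1 at chr6:129678974-129679223, all on the minus strand and written 5′ to 3′ in the direction of the gene. Capitals mark the Runx motif, searched as TGTGGT or TGCGGT on both strands, and Runx factors are regulators of NK and CD8 T cell genes.
Klrb1a: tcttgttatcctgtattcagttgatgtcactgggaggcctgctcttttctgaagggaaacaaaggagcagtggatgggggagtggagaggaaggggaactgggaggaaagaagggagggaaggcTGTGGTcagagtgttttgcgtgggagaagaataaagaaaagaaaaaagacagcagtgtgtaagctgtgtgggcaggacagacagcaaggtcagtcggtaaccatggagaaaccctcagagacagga
Klrb1c: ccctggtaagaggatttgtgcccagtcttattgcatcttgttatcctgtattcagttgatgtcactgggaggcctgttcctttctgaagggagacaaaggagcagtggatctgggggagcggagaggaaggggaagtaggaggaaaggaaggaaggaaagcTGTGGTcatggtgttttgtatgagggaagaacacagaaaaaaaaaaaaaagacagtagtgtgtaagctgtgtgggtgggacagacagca
Klrk1: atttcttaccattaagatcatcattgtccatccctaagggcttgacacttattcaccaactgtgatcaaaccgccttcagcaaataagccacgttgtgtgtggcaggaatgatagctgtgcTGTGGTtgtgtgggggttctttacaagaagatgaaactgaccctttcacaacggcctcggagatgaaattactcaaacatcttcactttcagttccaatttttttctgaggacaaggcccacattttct
Klrc1: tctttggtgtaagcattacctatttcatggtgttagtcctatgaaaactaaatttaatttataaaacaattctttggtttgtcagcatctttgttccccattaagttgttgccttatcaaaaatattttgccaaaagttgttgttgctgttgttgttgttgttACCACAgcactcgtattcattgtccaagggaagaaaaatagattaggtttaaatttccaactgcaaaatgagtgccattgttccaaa
The first windows of 7 of 8 members held a Runx match, against 18.7% of 27025 promoter windows of the same length. It began 126 bases before the start used for the window in Klrb1a, 89 in Klrb1c, 129 in Klrk1 and, on the opposite strand, 87 in Klrc1. A T-box match, searched as GTGTGA on both strands, was in 0 of 8 first windows against 12.2% of all, though a second Klre1 window held 1, and an Ets match, AGGAAG on both strands, was in 4 of 8 against 29.2%; in the windows shown no Ets match overlapped a Runx match. Klrb1a and Klrb1c shared 64.8% of positions in a global alignment, against 41.5% to 49.5% for the other pairs. A match says that these letters are in the window and nothing about binding there.

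Klrd1, the CD94 chain, was high in most T cell populations of the epithelium and colon and low in Cd4 T cells. In the epithelium the 9 sums of gamma-delta T cells had a lowest, median and highest level of 456, 678 and 869 CPM, Cd8a-only T cells 525.8, 716 and 858, and Cd8a Cd8b1 T cells 83.1, 177 and 363. The first 2 populations overlapped over nearly their whole range and lay above every Cd8a Cd8b1 sum. T cells without the 4 genes had 123, 204 and 428 CPM, Cd4 Cd8a T cells 42.2, 107 and 239, and Cd4 T cells 0, 15 and 23.9, so Cd4 T cells lay below every other T cell population. Of cells thinned to 1500 UMIs, which removes differences in depth, 52.6% of gamma-delta and 52.6% of Cd8a-only T cells had a Klrd1 UMI, against 16.6% of Cd8a Cd8b1 T cells and 1.22% of the Cd79a background. Without thinning the shares were 77.5%, 70.6%, 30.2% and 2.2%, at median depths of 5538, 4745, 4990 and 4153 UMIs. Epithelial Ncr1 cells, with only 3 sums of 10 or more cells and none of them WT, had 418, 599 and 903 CPM.

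**Figure D1:**
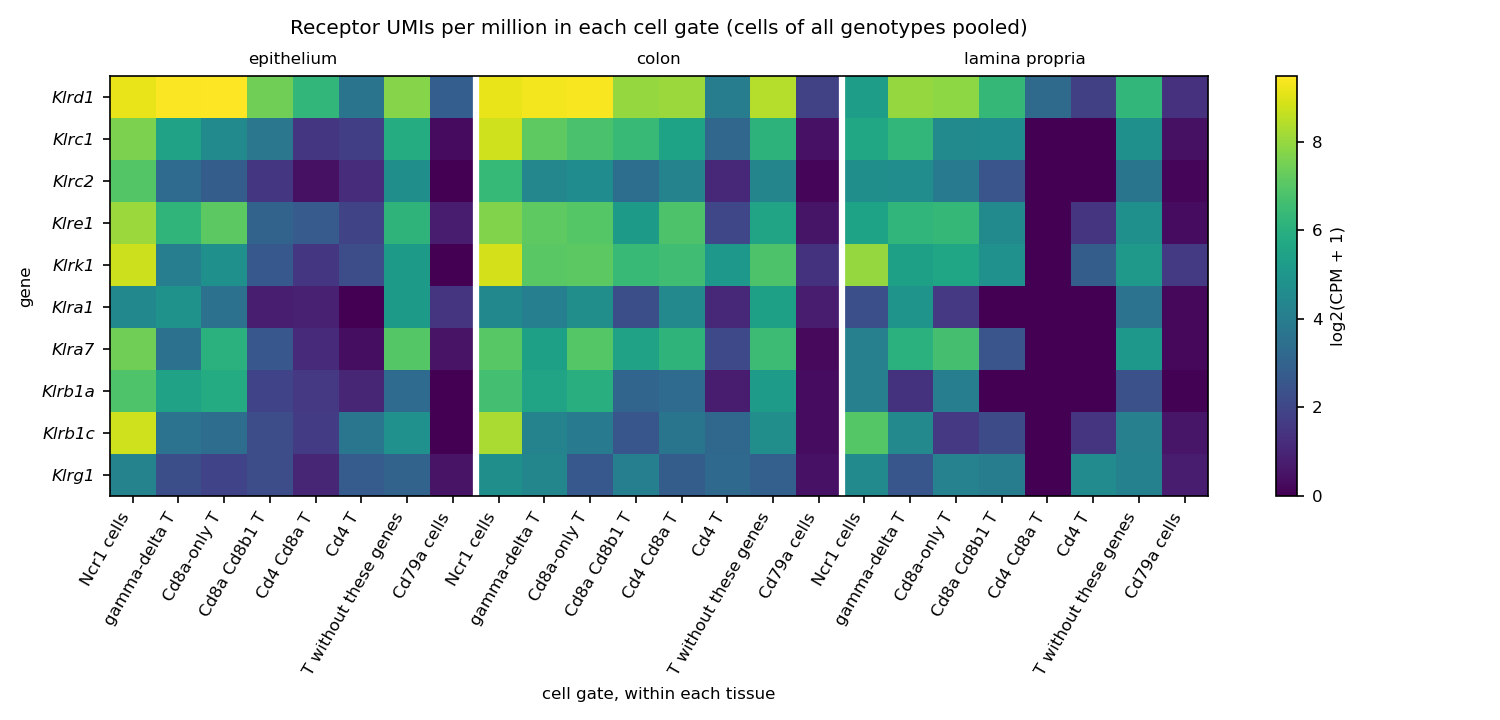
Colour gives log2(CPM + 1) of each receptor gene (rows) in the cells of each gate pooled over genotypes (columns), for epithelium, colon and lamina propria. Klrd1 is brightest in gamma-delta and Cd8a-only T cells of epithelium and colon, Klrb1c and Klrk1 in Ncr1 cells, and the Cd79a column is dark throughout.

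Against Cd8a Cd8b1 T cells of the same endings, 8 of 10 members were higher in epithelial gamma-delta T cells and none was lower (edgeR quasi-likelihood test on sums, ending as block, Benjamini-Hochberg adjusted p under 0.05 over all genes). Over all genes tested, 16.3% passed in either direction, and the median log2 ratio was 1.58 for the members and 0.00 for all genes. Klrb1a, an NKR-P1 receptor, differed most, at 35.6, 42.7 and 52.8 CPM (lowest, median, highest) in gamma-delta T cells against 0.707, 1.84 and 8.52 in Cd8a Cd8b1 T cells. Its log2 ratio was 3.83 ± 0.25 (SE, edgeR adjusted p = 2.96e-18), and the groups did not overlap. Klre1 had 10.2, 51.2 and 163 CPM against 2.8, 5.79 and 20.8 CPM (log2 ratio 2.95 ± 0.32, edgeR adjusted p = 1.48e-10), and Klrd1 a log2 ratio of 1.83 ± 0.20. Klrb1c (1.43 ± 0.28), Klrk1 (1.36 ± 0.42), Klra1 (3.79 ± 0.91), Klrc2 (1.73 ± 0.57) and Klrc1 (1.08 ± 0.38) also passed. Klra7 (1.05 ± 0.60, edgeR adjusted p = 0.297) and Klrg1 (−0.05 ± 0.44, edgeR adjusted p = 0.991) did not. Klrc1 had 4.85, 10.3 and 187 CPM against 5.02, 11.6 and 29.7 CPM, so its median was lower in gamma-delta T cells. Klra1 had 0, 1.31 and 168 CPM against 0, 0 and 9.19 CPM. The count of members that passed was 4 when library 1 was left out, which lost Klrk1, Klrc2, Klrc1 and Klra1, and 5 with DESeq2.

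Cd8a-only T cells of the epithelium had 7 of 10 members above Cd8a Cd8b1 T cells and none below, where 18.9% of all genes passed. Klre1 had 60.3, 141 and 200 CPM against 2.8, 5.79 and 20.8 CPM, a log2 ratio of 4.16 ± 0.31 (edgeR adjusted p = 6.79e-16). Klrb1a had 41.9, 59.4 and 71.6 CPM (4.25 ± 0.25), Klra7, the Ly49G receptor, 5.97, 49.6 and 161 CPM (3.37 ± 0.53) and Klrk1 7.96, 28.1 and 35.8 CPM (2.20 ± 0.41). Klrd1 (1.90 ± 0.20), Klra1 (4.08 ± 0.95) and Klrb1c (1.25 ± 0.30) also passed. Klrc2, Klrc1 and Klrg1 had log2 ratios of 1.43, 0.70 and −0.53 with edgeR adjusted p of 0.0956, 0.274 and 0.531. Klra7 passed in this population and missed the threshold in gamma-delta T cells, a difference between the populations that was not itself tested.

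Cd4 T cells of the epithelium with Cd8a were set against those without. Of 10 members, 1 was higher and 2 were lower, where 12.2% of all genes passed. Klrd1 was higher, at 42.2, 107 and 239 CPM against 0, 15 and 23.9 CPM (log2 ratio 3.05 ± 0.38, edgeR adjusted p = 2.21e-08), and the groups did not overlap. Klrb1c was lower, at 0, 3.73 and 9.71 CPM against 1.36, 13.5 and 29.2 CPM (−2.39 ± 0.53), and so was Klrg1, at 0, 0 and 2.75 CPM against 0, 2.5 and 26.9 CPM (−2.58 ± 0.84, edgeR adjusted p = 0.0314). Both of these low genes overlapped between the groups, and their calls were lost without library 2; the Klrg1 call was also lost without library 3. The contrast could not be fitted in the other 2 tissues, which each had 1 sum of Cd4 Cd8a T cells.

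**Figure D2:**
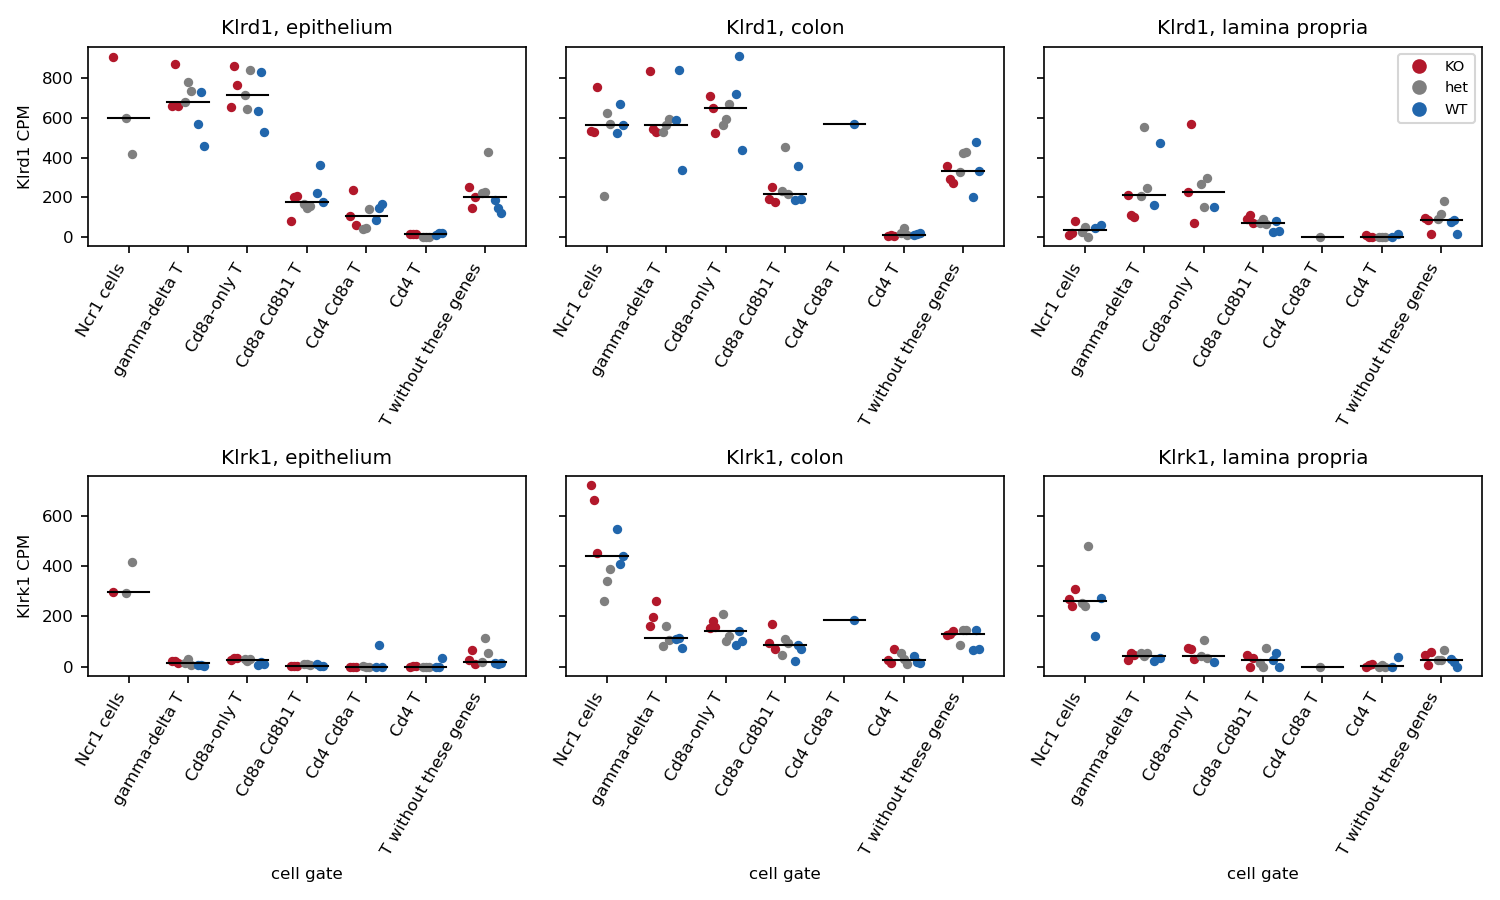
Points give CPM of Klrd1 (top) and Klrk1 (bottom) in each sum of at least 10 cells, coloured by genotype, and lines give medians, with a vertical scale shared along each line of panels. Klrd1 is high in gamma-delta and Cd8a-only T cells of epithelium and colon, while Klrk1 is highest in Ncr1 cells of all 3 tissues and is higher in colon than in epithelial T cells.

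In epithelium and colon, thinned Ncr1 cells more often had several receptors than thinned T cells did. Of epithelial Ncr1 cells thinned to 1500 UMIs, 59.7% had UMIs of 2 or more members and 22.6% of none. Cells with 2 or more made up 14.8% of gamma-delta T cells, 20.7% of Cd8a-only T cells and 1.96% of Cd8a Cd8b1 T cells. Of epithelial Cd79a cells, 98.1% had none. In the colon the shares with 2 or more members were 73.3% of Ncr1 cells, 32.7% of gamma-delta, 36.5% of Cd8a-only and 14.1% of Cd8a Cd8b1 T cells, against 0.0933% of Cd79a cells. In the lamina propria Ncr1 and gamma-delta T cells were close, at 16.2% and 15.3%, with 9.76% of Cd8a-only and 4.02% of Cd8a Cd8b1 T cells. Up to 7 members were seen in 1 thinned Ncr1 cell. In the epithelium the most in 1 cell was 6 in the gamma-delta, Cd8a Cd8b1 and Cd8a-only gates alike. Colon Cd8a-only T cells also reached 6.

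Against epithelial Cd8a Cd8b1 T cells, 8 of 10 members were higher in Ncr1 cells and none was lower, where 7.11% of all genes passed. The 3 Ncr1 sums were KO library 1, het library 1 and het library 2, with 10, 13 and 11 cells. No WT ending had enough Ncr1 cells, so the result holds for KO and het cells only. Klrb1c, the NK1.1 gene, had 307, 339 and 660 CPM in the 3 Ncr1 sums against a highest value of 14.7 in Cd8a Cd8b1 T cells, a log2 ratio of 6.57 ± 0.39 (edgeR adjusted p = 2.46e-19). Klrk1 had 294, 295 and 418 CPM against at most 10.9 CPM (5.51 ± 0.66), and Klrb1a 113, 139 and 174 CPM against at most 8.52 CPM (5.49 ± 0.62). These 3 genes thus lay far above every Cd8a Cd8b1 sum. Klrc2 (5.05 ± 0.93), Klra7 (4.91 ± 1.05), Klre1 (4.49 ± 0.74), Klrc1 (3.03 ± 0.83) and Klrd1 (1.81 ± 0.36) also passed, while Klrg1 (2.58, edgeR adjusted p = 0.147) and Klra1 (1.54, edgeR adjusted p = 0.898) did not. The Klra7 call was lost without library 2.

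The colon gave a similar list. Of 10 members, 6 were higher in gamma-delta T cells (background 14% of genes), 6 were higher and 1 lower in Cd8a-only T cells (14.1%), and 9 were higher in Ncr1 cells (19.3%), each against Cd8a Cd8b1 T cells. Klrb1a had 21.7, 47.8 and 79 CPM in gamma-delta and 20.9, 59.6 and 80.4 CPM in Cd8a-only T cells, against 0, 5.65 and 18 CPM in Cd8a Cd8b1 T cells, with log2 ratios of 2.44 ± 0.37 and 2.80 ± 0.34. Klre1 (1.88 ± 0.23 and 1.62 ± 0.23) and Klrd1 (1.17 ± 0.16 and 1.27 ± 0.16) were also higher in both. Klrg1 was lower in Cd8a-only T cells, at 1.09, 2.84 and 13.1 CPM against 6.77, 11.3 and 39.3 CPM (−1.63 ± 0.49, edgeR adjusted p = 0.0149), with overlap between the groups; this call was lost without library 2. In Ncr1 cells Klrb1c had 208, 310 and 487 CPM against 0, 5.56 and 16.9 CPM (5.90 ± 0.39, edgeR adjusted p = 3.03e-17), and Klrk1 262, 441 and 721 CPM against 21.8, 85.8 and 170 CPM (2.45 ± 0.23). Klrg1, at 0, 30.6 and 41.9 CPM in colon Ncr1 cells, did not pass (0.63, edgeR adjusted p = 0.455). The count in gamma-delta T cells was 3 without library 3, where Klrb1c, Klrc2 and Klra1 no longer passed, and that in Cd8a-only T cells was 4.

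The lamina propria had fewer cells, with 187 gamma-delta, 266 Cd8a Cd8b1, 185 Cd8a-only T cells and 286 Ncr1 cells. Only Klrd1 and Klrk1 passed the filter on low counts. A gene could meet that filter through the gates in which it was high. Klrk1 was highest in Ncr1 cells, and Klrd1 in gamma-delta and Cd8a-only T cells. The counts out of 2 members below are thus partly set by the filter. Klrd1 was higher in gamma-delta T cells, at 99.6, 210 and 555 CPM against 25, 70.2 and 111 CPM in Cd8a Cd8b1 T cells (log2 ratio 1.51 ± 0.36, edgeR adjusted p = 0.00224), and Klrk1 did not pass (0.65, edgeR adjusted p = 0.496). That is 1 of 2 members, where 14% of all genes passed. In Cd8a-only T cells Klrd1 also passed, at 69.9, 227 and 567 CPM (1.44 ± 0.39, edgeR adjusted p = 0.0361), again 1 of 2 members against 1.68% of genes, but the call was lost when any 1 library was left out. In Ncr1 cells Klrk1 was higher, at 124, 260 and 479 CPM against 0, 25 and 75.9 CPM (3.31 ± 0.37, edgeR adjusted p = 1.92e-10), while Klrd1 had 0, 36.9 and 82.5 CPM (−1.04 ± 0.45, edgeR adjusted p = 0.0595); here 40.1% of all genes passed. The gamma-delta call was lost without library 2, and both lamina propria calls of Klrd1 were lost when sums needed 30 cells or gates needed 2 UMIs.

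In Ncr1 cells most members differed between tissues. Library sums were set against those of the lamina propria, with 3 a tissue treated as unpaired. All 8 members tested were higher in epithelial Ncr1 cells (26.2% of genes passed) and 8 of 9 in colon Ncr1 cells (37.4%). A member could enter these tests, and those of T cells below, through the tissue where it was high. The counts out of members tested are thus partly set by the filter on low counts. In lamina propria Ncr1 cells Klrb1a and Klra7 had 17 UMIs each and Klrc2 had 26. Among the members in these cells Klrd1 differed most, with the median of colon sums at 562 CPM (range 208 to 752) against 36.9 CPM (0 to 82.5) in lamina propria sums. The log2 ratio was 3.81 ± 0.30 in epithelium (edgeR adjusted p = 4.57e-06) and 3.72 ± 0.26 in colon (edgeR adjusted p = 5.89e-07). Of thinned Ncr1 cells, 41.9% in epithelium, 52.4% in colon and 4.69% in lamina propria had a Klrd1 UMI, against 1.22%, 0.394% and 0.271% of Cd79a cells. Klrk1 differed least among the members that passed, at 0.75 ± 0.22 in epithelium and 0.78 ± 0.14 in colon, and 33.9%, 44.8% and 36.8% of thinned Ncr1 cells of epithelium, colon and lamina propria had it. Eomes, given above, moved with these differences, and its part in them was not tested. The epithelial Klrk1 call was lost in 6 of 11 other settings.

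T cells of the epithelium and of the lamina propria differed in both directions. Klrd1 was higher in epithelial gamma-delta (log2 ratio 1.33 ± 0.28), Cd8a Cd8b1 (0.94 ± 0.23) and Cd8a-only T cells (1.44 ± 0.16, edgeR adjusted p = 8.32e-06) and in T cells without the 4 genes (1.31 ± 0.25). Klrb1a was higher in epithelial gamma-delta T cells, with 7 of 8 lamina propria sums at 0 (4.61 ± 0.71, edgeR adjusted p = 0.000926), a fitted ratio that depends on the prior count. It was also higher in Cd8a-only T cells (1.67 ± 0.39). Klrk1 was lower in epithelial Cd8a Cd8b1 T cells, at 2.4, 4.18 and 10.9 CPM against 0, 25 and 75.9 CPM (−2.50 ± 0.51, edgeR adjusted p = 0.00348), and in Cd8a-only T cells (−1.02 ± 0.32, edgeR adjusted p = 0.0414). In gamma-delta T cells it did not pass (−1.48 ± 0.56, edgeR adjusted p = 0.102). Klre1 (−1.72 ± 0.57) and Klrg1 (−2.19 ± 0.70) were lower in epithelial Cd8a Cd8b1 T cells. In all, 2 of 10 members tested passed in gamma-delta (14.8% of genes), 4 of 7 in Cd8a Cd8b1 (20.6%), 3 of 9 in Cd8a-only (16.7%) and 3 of 8 in T cells without the 4 genes (27.7%). Both Klrk1 calls depended on single lamina propria libraries: without library 3 the Cd8a Cd8b1 call was lost, and without library 1 or 2 the Cd8a-only call.

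Colon T cells were higher than lamina propria T cells for both Klrd1 and Klrk1. Klrk1 had 73.5, 115 and 263 CPM in colon gamma-delta T cells against 23.1, 43.9 and 55.5 CPM in lamina propria, without overlap (log2 ratio 1.62 ± 0.22, edgeR adjusted p = 0.000838). Its ratio was 1.52 ± 0.41 in Cd8a Cd8b1, 1.36 ± 0.25 in Cd8a-only and 2.38 ± 0.63 in Cd4 T cells, and Klrd1 was higher by 1.26 ± 0.33, 1.53 ± 0.26, 1.35 ± 0.19 and 2.41 ± 0.68 in gamma-delta, Cd8a Cd8b1, Cd8a-only and Cd4 T cells. Klrc1, the inhibitory partner of CD94, was higher in colon Cd8a Cd8b1 (1.71 ± 0.45) and Cd8a-only T cells (2.14 ± 0.43). Klrg1 was lower in colon Cd4 T cells, at 0, 8.89 and 16.8 CPM against 0, 21.3 and 51.8 CPM (−1.51 ± 0.43, edgeR adjusted p = 0.0306). The members that passed were 3 of 9 in gamma-delta (20.4% of genes), 4 of 6 in Cd8a Cd8b1 (24.5%), 5 of 9 in Cd8a-only (22.8%), 3 of 3 in Cd4 T cells (22.9%) and 6 of 10 in T cells without the 4 genes (34.4%). In Cd4 T cells and in T cells without the 4 genes, 1 of these was Klrg1, lower in colon.

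**Figure D3:**
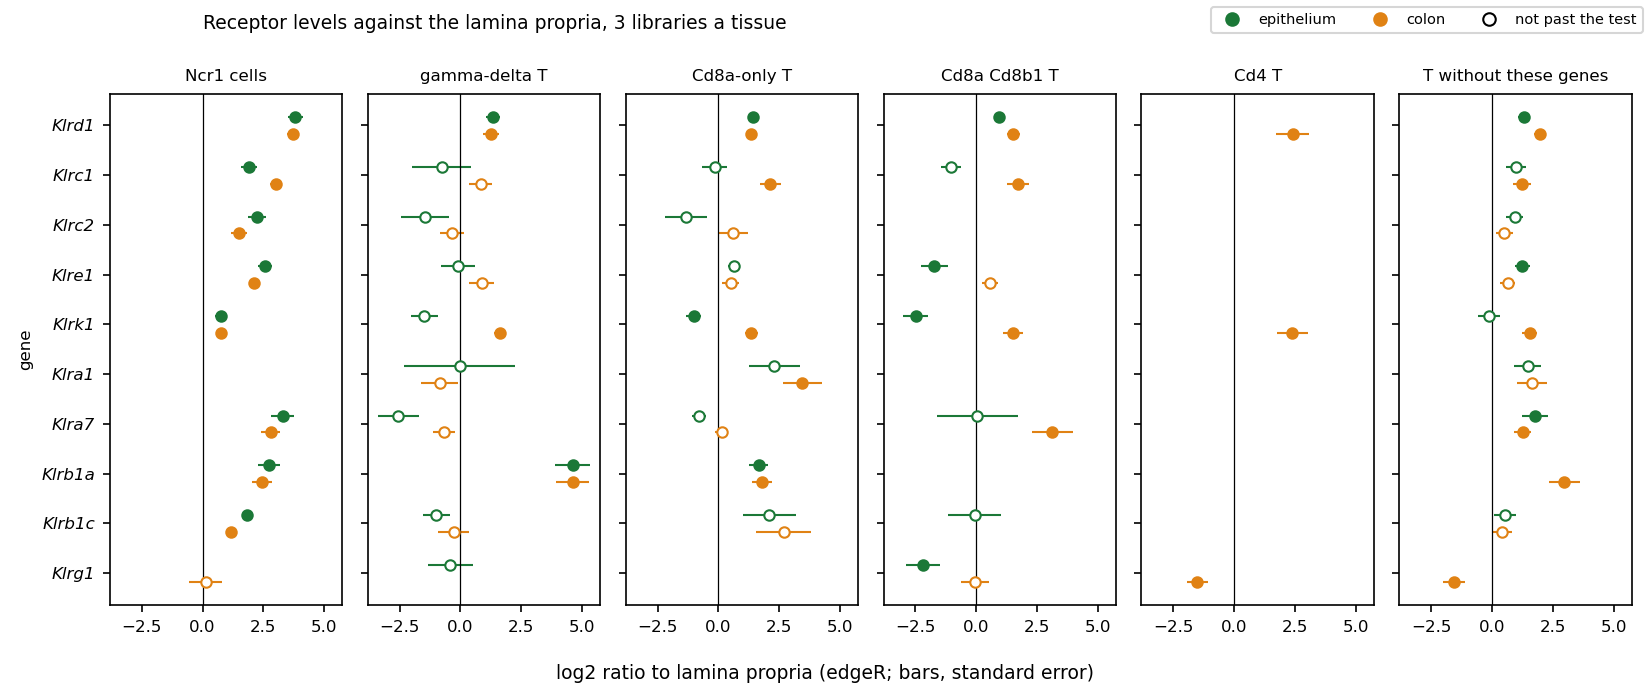
Each point is the log2 ratio of a receptor gene in epithelium or colon to lamina propria within 1 gate, from 3 library sums a tissue, with its standard error; open points did not pass the test. Most filled points lie to the right, and those on the left are Klrk1, Klre1 and Klrg1 in T cells.

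Other features moved with the tissues. The gates of the lamina propria held 4240 to 11717 CPM of Igha, a plasma cell transcript, against 13 to 43 CPM in the epithelium. Their median depths were 2306 to 2956 UMIs per cell, against 3370 to 5538 in epithelium. The part of either in the tissue differences was not tested. The libraries of different tissues carry no shared run label, and with WT cells alone 1 of 8 tests of epithelium and 9 of 26 of colon passed. Over all gates 20 of 42 tests passed in epithelium and 29 of 46 in colon, and without lamina propria library 3, whose WT hashtag was weak, 18 and 23 passed. Without epithelium library 3 the first count was 13, among fewer tests.

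The level of Klrg1 across 19 pairs of tissue and gate had a Pearson r of −0.15 with that of Klrd1 and 0.59 with that of Klrk1 on log2(CPM + 1), the lowest and the highest with any member, while Klrc1 and Klrc2 had an r of 0.93. Such pairs share libraries and depth, so r is a description. Among Cd4 T cells, those with a UMI of Foxp3, the regulatory T cell factor, had 76.5 CPM of Klrg1 against 0.844 CPM in those without in epithelium (39 and 662 cells), 50.03 against 2.03 CPM in colon (70 and 633 cells) and 124 against 7.68 CPM in lamina propria (37 and 284 cells). Cells with Gata3 and Il1rl1 or Il17rb but no Cd3e, Cd79a or Ncr1, genes of group 2 innate lymphoid cells, had 352 CPM in epithelium (9 cells), 368 in colon (59 cells) and 201 in lamina propria (308 cells), and Klrd1 at 0 in all 3. Both subsets were chosen after the values had been seen and are given without a test.

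Receptor levels by genotype were compared within each tissue and population, with the library as block because the 3 genotypes of a library were captured together. In epithelial gamma-delta T cells the KO and het sums of Klrk1, Klre1 and Klrc1 lay at or above the WT sums in most libraries. Klrk1, the NKG2D gene, had 22.7, 23.05 and 12.6 CPM in KO libraries 1, 2 and 3, 13.8, 28.8 and 7.88 CPM in het and 7.12, 4.75 and 4.31 CPM in WT. Every KO and het sum lay above every WT sum, but the KO to WT log2 ratio of 1.84 ± 0.33 did not pass over all genes (edgeR adjusted p = 0.0514), nor did the het ratio of 1.65 (edgeR adjusted p = 0.107). In Cd8a-only T cells Klrk1 had 28.1, 35.5 and 35.8 CPM in KO, 30.3, 21.3 and 29.7 in het and 7.96, 16.9 and 11.0 in WT, again without overlap of KO or het with WT (KO 1.49 ± 0.28, edgeR adjusted p = 0.104). In Cd8a Cd8b1 T cells the order was not kept, with 3.54, 2.70 and 2.40 CPM in KO, 9.05, 10.9 and 4.99 in het and 9.19, 2.97 and 4.18 in WT.

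Klre1 in epithelial gamma-delta T cells had 163, 61.2 and 40.7 CPM in KO, 51.2, 130 and 66.3 in het and 21.4, 23.3 and 10.2 in WT. Both ratios were large, at 2.25 ± 0.48 for KO and 2.22 for het, and neither passed (edgeR adjusted p of 0.108 and 0.121). Klrc1, the NKG2A gene, had 187, 8.42 and 10.3 CPM in KO, 49.3, 34.5 and 17.7 in het and 8.90, 9.03 and 4.85 in WT (KO 2.49 ± 0.72, edgeR adjusted p = 0.304). KO library 1 alone stood far above the rest for Klrc1. Klrc2 had 30.3, 12.8 and 3.05 CPM in KO, 7.59, 8.29 and 0 in het and 1.78, 0.95 and 2.42 in WT (KO 2.47 ± 0.68, edgeR adjusted p = 0.26). Klrd1 had 656, 869 and 658 CPM in KO, 678, 780 and 735 in het and 567.5, 727 and 456 in WT, a KO ratio of only 0.33 ± 0.08 (edgeR adjusted p = 0.2). Klrb1a had 43.9, 39.5 and 40.0 CPM in KO, 35.6, 38.4 and 42.7 in het and 52.5, 45.1 and 52.8 in WT, with a KO ratio of −0.28 (edgeR adjusted p = 0.498). Libraries 1 and 2, whose WT hashtag was weak, were left out in turn. The KO ratio of Klrk1 in gamma-delta T cells was then 1.83 and 1.60 (edgeR adjusted p of 0.182 and 0.062) and in Cd8a-only T cells 1.48 and 1.69. That of Klre1 in gamma-delta T cells was 1.66 and 2.63 and passed both times (edgeR adjusted p of 0.00468 and 0.0372). Klrc1 was at 0.50 and 3.21, the second of which passed (edgeR adjusted p = 0.0296), and Klrc2 at 1.66 and 2.06, so the Klrc1 ratio rested on library 1. The het ratio without them was 1.88 and 0.88 for Klrk1, 2.57 and 1.89 for Klre1 and 1.94 and 1.76 for Klrc1, and the Klre1 value without library 1 passed (edgeR adjusted p = 0.000217).

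**Figure D4:**
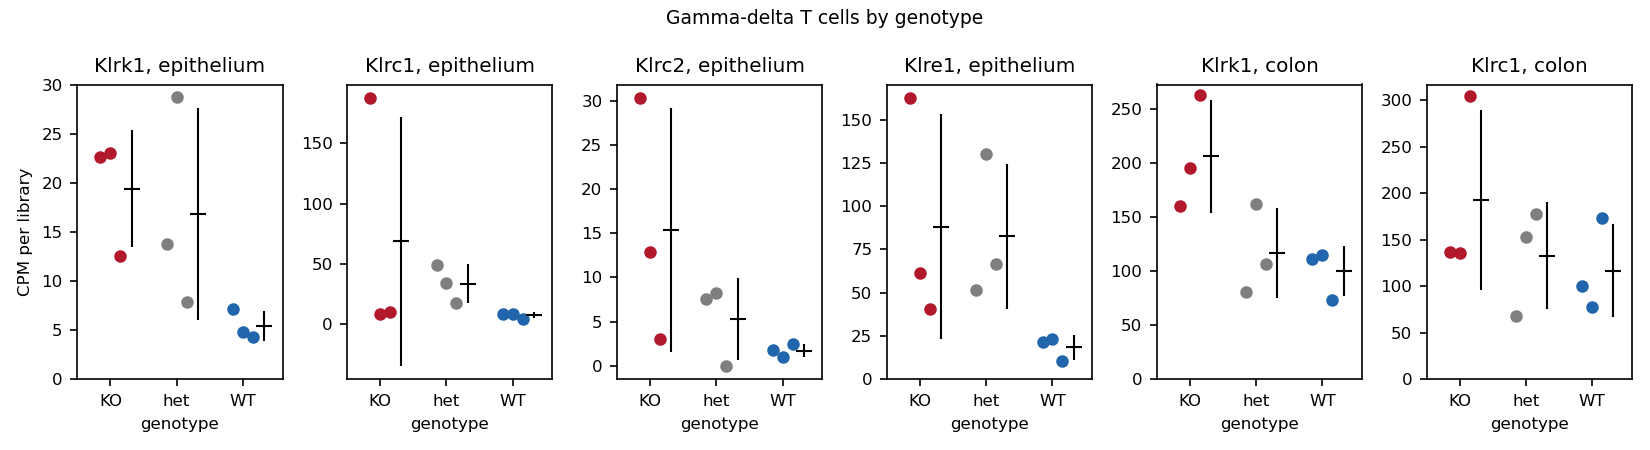
Points give CPM in gamma-delta T cells of each library for KO, het and WT, with the mean and SD of 3 libraries to their right; KO and het points stand for 1 mouse and WT points for 2 pooled mice. In epithelium the WT points of Klrk1 and Klre1 lie below every KO and het point, and for Klrc1 and Klrc2 KO library 1 lies apart.

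Over 5 epithelial populations, 0 of 32 member tests of KO against WT passed by edgeR (0.267% of all gene tests passed). DESeq2 called 1, Klrk1 in gamma-delta T cells, and 15 had an unadjusted p under 0.05. The share of all genes at that unadjusted p is not given here, so such counts, here and below, do not set the members apart. The number of KO calls by edgeR was 7 without the 5% of cells with most UMIs and 4 with each cell's own hashtag share deciding its genotype. It was 15 without a filter on low counts, and 1, 3 and 5 without library 1, 2 and 3. These settings can change which members were tested, so the counts are not all out of 32. Their shares of all genes are not given here. For het against WT 1 of 32 passed (0.232%), 19 had an unadjusted p under 0.05 and DESeq2 called 3; without the replicate block edgeR called 3. The test that passed was Klrc1 in T cells without the 4 gating genes, at 62.5, 34.2 and 42.6 CPM in KO, 75.9, 93.3 and 170 in het and 13.5, 10.6 and 11.4 in WT. Every het value lay above every WT value (log2 ratio 3.04 ± 0.44, edgeR adjusted p = 0.0119), but the call was lost without library 1 and without library 2. The WT values rest on 3, 3 and 4 UMIs, against 23, 25 and 50 in het. In libraries 1, 2 and 3 the median depth per cell was 3110, 3317 and 1658 UMIs in WT and 3544, 3564.5 and 3882 in het. The part of depth in this call was not tested. The KO ratio was 1.86 (edgeR adjusted p = 0.127).

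In the same T cells Klre1 had 76.7, 91.2 and 90.0 CPM in KO, 62.7, 93.3 and 177 in het and 27.0, 0 and 17.1 in WT (KO 2.51, edgeR adjusted p = 0.11), and Klra7 had 65.3, 194 and 114 CPM in KO against 22.5, 0 and 0 in WT (4.29, edgeR adjusted p = 0.133). Tyrobp, the adaptor of activating Ly49 and NKG2C receptors, passed as higher in both KO and het in this population. These cells also held epithelial transcripts, with Epcam, Krt8 and Fabp1 at 307, 562 and 562 CPM over all genotypes, whose part in the result was not tested.

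In the colon 0 of 43 member tests passed for KO and 0 of 43 for het by edgeR (0.0167% and 0.0143% of gene tests passed), with 8 and 3 at an unadjusted p under 0.05 and 0 by DESeq2 for both. In colon gamma-delta T cells Klrk1 had 160, 195 and 263 CPM in KO, 80.7, 162 and 106 in het and 111, 115 and 73.5 in WT, so every KO sum lay above every WT sum (1.04 ± 0.24, edgeR adjusted p = 0.236). In the lamina propria 0 of 8 tests passed for KO and 0 of 8 for het by edgeR (0.224% and 0.0783%), with 1 and 2 at an unadjusted p under 0.05 and 0 by DESeq2. The KO and het comparisons share the WT sums. Over the 3 tissues, 51 of 83 KO ratios and 58 of 83 het ratios were positive, and the share over all genes is not given here.

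Klra1, the Ly49A gene, was concentrated in 1 ending of epithelial gamma-delta T cells; this was followed up after its values had been seen and is a description. It was found in 172 of 563 such cells (30.6%) in KO library 1 and in 22 of 353 (6.23%) in KO library 2, against at most 1.13% in each other ending. The levels were 168 CPM in KO library 1, 25.7 in KO library 2 and at most 3.32 elsewhere. Of 141 T cell receptor variable genes, Trav13-4-dv7 separated these cells most: 91.9% of Klra1 cells in KO library 1 had it, against 13.8% of the other gamma-delta T cells there, and 95.5% against 5.74% in KO library 2. In KO library 1, 83.1% of Klra1 cells also had Klrc1, against 13.3% of the other cells, 75.0% against 23.3% had Klre1 and 2.91% against 18.7% had Klrb1a. In KO library 2 Klre1 was in 95.5% of Klra1 cells against 12.4% of the others, but Klrc1 in 0% against 2.42%. In lamina propria gamma-delta T cells of KO library 1, 9 of 34 cells (26.5%) had Klra1, of which all had Klrc1 but only 2 had Trav13-4-dv7. KO libraries 1 of the 2 tissues carry no shared mouse label. The Klra1 call in gamma-delta T cells was lost without library 1.

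**Figure D5:**
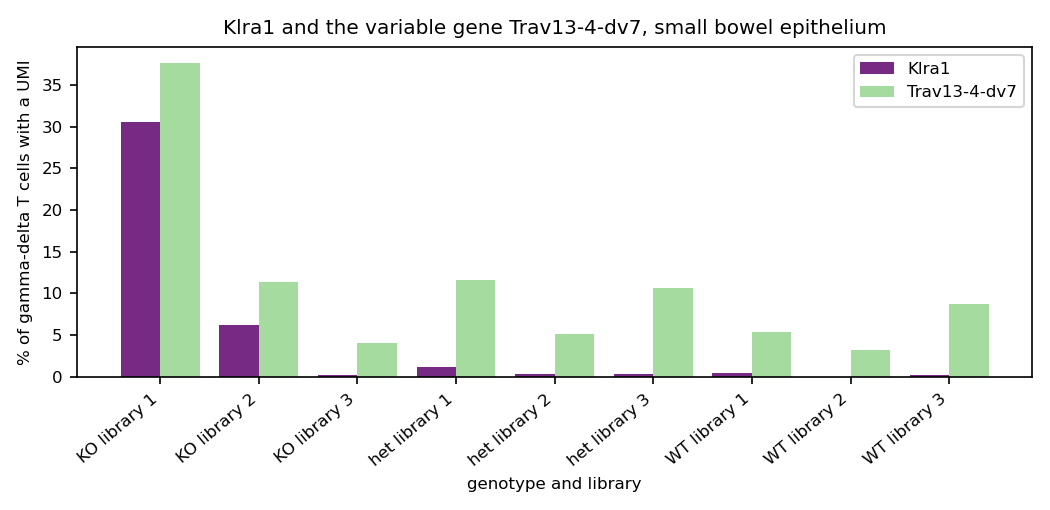
Bars give the percent of epithelial gamma-delta T cells with a UMI of Klra1 or of Trav13-4-dv7 in each genotype and library. KO library 1 stands out for both, at 30.6% and 37.7%, followed for Klra1 by KO library 2 at 6.23%.

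Related genes of the NK complex moved like the members; all the lists here were chosen with earlier results of these data known. Of 15 other genes of the complex, 10 were tested in the epithelium. Gamma-delta and Cd8a-only T cells each had 8 of the 10 above Cd8a Cd8b1 T cells and none below, where 16.3% and 18.9% of all genes passed, namely Klrb1, Klrb1b, Klri1, Klri2, Klra3, Klra5, Klra6 and Klra9, with list medians of 2.68 and 3.29 on the log2 scale. Klri1 and Klri2 encode the partner chains of the Klre1 product. In Ncr1 cells, where 7.11% of all genes passed, 7 of 10 were higher and none lower, among them the receptor gene Klrb1b, at a log2 ratio of 10.23, and Klra8, the activating Ly49H receptor.

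Adaptor genes differed in both directions. Of 15 tested in epithelial gamma-delta T cells, 6 were higher (Zap70, Sh2d1b1, Fcer1g, Ptpn11, Ptpn6 and Tyrobp) and 1 was lower (Sh2d1a), with a list median of 0.13, where 16.3% of all genes passed. Tyrobp rose by 2.92 ± 0.41 in gamma-delta T cells (edgeR adjusted p = 1.02e-07), 3.66 ± 0.41 in Cd8a-only T cells and 4.86 ± 0.56 in Ncr1 cells on the log2 scale. Hcst, the NKG2D adaptor, had a ratio of −0.03 in gamma-delta T cells (edgeR adjusted p = 0.921) and was lower in Ncr1 cells (−0.62 ± 0.19, edgeR adjusted p = 0.0267). In Ncr1 cells 4 of 15 adaptors were higher and 4 lower, against 7.11% of all genes. Of 11 ligand genes tested in epithelial gamma-delta T cells, 5 were lower (B2m, Clec2i, Clec2d, Raet1e and H2-K1) and none was higher, again against 16.3% of all genes. By genotype, where 0.267% of gene tests passed for KO and 0.232% for het, 1 of 11 ligands passed in KO gamma-delta, KO Cd8a Cd8b1, het gamma-delta and het Cd8a Cd8b1 T cells each. This was H2-D1 throughout: this classical MHC class I gene, read by Ly49 receptors, was lower in KO than in WT epithelial gamma-delta T cells (−0.36, edgeR adjusted p = 0.0182) and Cd8a Cd8b1 T cells (−0.52 ± 0.06, edgeR adjusted p = 0.00199), and in het gamma-delta T cells (−0.36, edgeR adjusted p = 0.0264). Klra5, 1 of 7 other genes of the NK complex tested there, was lower in KO gamma-delta T cells (−1.22 ± 0.19, edgeR adjusted p = 0.0235). Ligands were also present in epithelial cells, taken as cells with Epcam and without Ptprc: Cdh1, the cadherin that Klrg1 binds, had 376, 360 and 383 CPM there and H2-T23 had 168, 279 and 94.7 CPM in epithelium, colon and lamina propria preparations, while no member passed 1.77 CPM.

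In thinned cells, detection of one receptor went with detection of others. Over all 7 gates Klrd1 was found in 53.4% of cells with Klrc1 against 31.6% of those without, and in 57.7% of cells with Klrc2 against 32.4%. The CD94 chain was thus seen in most cells with a partner chain. These shares pool gates that differ in Klrd1, with 1.60% of Cd4 and 52.6% of gamma-delta T cells in epithelium. In colon Cd8a-only T cells it was 57.7%, whatever their partner chain. Whether Klrd1 goes with a partner chain beyond the mix of gates was not tested. Klrc2 was found in 13.4% of cells with Klrc1 against 0.972% of the others, and Klra7 in 26.5% of cells with Klra1 against 2.70%. Within epithelial Cd8a-only T cells Klra7 was in 58.8% of Klra1 cells against 4.0% of the others, but in KO library 1 gamma-delta T cells only 1 of 172 Klra1 cells had Klra7. Over 19 pairs of tissue and gate with at least 50 cells, the genes of 6757 considered whose log2(CPM + 1) was most like a member were Lrrk1 (r = 0.94) and Cfap126 (0.93) for Klrd1, Olfm1 (0.92) for Klrk1, Emid1 (0.90) for Klrc1, Spry2 (0.91) for Klre1 and Napsa (0.93) for Klrb1a. For Klrb1c it was Ncr1 (0.95), the gene that defined a gate, and Ctla2a (0.87) for Klrg1. Among members Klre1 and Klra7 were alike (0.91) and Klrd1 and Klrk1 less so (0.52).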

How the data were processed

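Gene expression and hashtag libraries of 3 tissues were deposited as UMI counts per cell barcode, whole numbers without normalization by the authors. The barcode and feature tables deposited with them hold no measurement (other). The submitters' processing notes name Cell Ranger, Seurat and mm10, without versions. The filters the series describes (200 to 8000 genes, 300 to 50000 UMIs, under 20% mitochondrial counts) were applied here to the deposited matrices and removed 280, 253 and 401 barcodes of epithelium, lamina propria and colon. Doublets were not removed by a caller; 412, 8 and 106 T cells carried other combinations of the gating genes and were left out. Endings of a library shared 0 barcodes, while 134, 188 and 191 barcodes recurred between libraries.

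Genotype was taken from the hashtag with the top median per barcode ending. Counts were summed per ending and gate (at least 10 cells) and tested with edgeR 4.0.16 (R 4.3.3; TMM, filterByExpr, quasi-likelihood F test, Benjamini-Hochberg over all genes of a fit). Populations were compared with the ending as block, because both come from the same mice and capture, and genotypes with the library as block, because the genotypes of a library were pooled before capture, per the labels. Tissue libraries were compared unpaired. The p-values of tissue and genotype comparisons measure the spread between 3 libraries. Those of populations measure the spread between up to 9 endings, which come from 3 libraries and differ in genotype. Epithelial Ncr1 cells had 3 sums. In lamina propria, gamma-delta and Ncr1 cells had 8 sums and Cd8a-only T cells 7. DESeq2 1.42.0, its size factors, no filter, at least 30 cells, gates at 2 UMIs, no block, hashtag shares per cell (80% of at least 10 hashtag UMIs), cells below the top 5% of UMIs, WT alone and each library left out were alternatives. The fit was tested on simulated data. Shares were compared after thinning to 1500 UMIs. UMIs per ending ran from 6316359 to 30418604, so a level near 1 UMI of a sum is uncertain by counting alone. Python 3.11.15, pandas 2.3.3 and biopython 1.88 were used for sums and alignments. All 10 members are named; genes of the lists are named where they passed or as counts; the members and lists were chosen with earlier results of these data known. A result on a subset of Ncr1 cells is not reported here.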

Additional observations from a re-analysis of the deposited data

Results flagged for a closer look

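In 48 of 172 groups of 4 to 9 sums the highest or lowest value stood apart from the others. A rate of about 1 in 20 groups would hold by chance for independent, normally spread values, and no rate was worked out for these sums. The groups share endings and mix the 3 genotypes, and many low groups rest on a few UMIs in 1 sum. The 48 groups are thus not a measured excess over chance. In epithelial gamma-delta T cells KO library 1 was highest for Klrc1 (187 CPM, nearest 49.3), Klrc2 (30.3, nearest 12.9) and Klra1 (168, nearest 25.7), and het library 1 for Klra7 (59.3, nearest 13.1). In lamina propria gamma-delta T cells KO library 1 was highest for Klra1 (132 CPM, 15 UMIs), het library 1 for Klra7 (296, nearest 119.7) and het library 3 for Klrb1a (27.5, from 1 UMI). In colon gamma-delta T cells Klrc1 reached 305 CPM in KO library 3 (nearest 178).

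In epithelial Cd8a Cd8b1 T cells Klrd1 reached 363 CPM in WT library 2 (nearest 220), and WT library 1 was highest for Klra1 (9.19), Klra7 (42.3) and Klrb1c (14.7); both endings had a weak hashtag. In lamina propria Cd8a Cd8b1 T cells het library 2 was highest for Klra7 (39.2 CPM, 3 UMIs) and Klrb1c (26.1 CPM, 2 UMIs). In colon Cd8a Cd8b1 T cells Klre1 reached 94.5 CPM in het library 2 (nearest 46.2) and Klra7 147 CPM in het library 1 (nearest 67.7). In lamina propria Cd8a-only T cells Klra1 (25.2 CPM, KO library 1) and Klrb1c (15.0 CPM, het library 2) each rested on 1 UMI. In colon Cd8a-only T cells Klrc2 reached 49.9 CPM in WT library 2, Klra1 65.7 CPM in KO library 2 and Klrb1c 38.3 CPM in het library 2.

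In epithelial T cells without the gating genes het library 3 was highest for Klrd1 (428 CPM, nearest 249.9) and Klra7 (537, nearest 194), and WT library 1 for Klrb1a (31.4). In such cells of the lamina propria Klre1 reached 113 CPM in het library 3 (nearest 46.7), and of the colon Klra1 97.6 CPM in KO library 1 and Klra7 156 CPM in het library 3. In colon Ncr1 cells Klrd1 was lowest in het library 1 (208 CPM, nearest 522), Klra1 highest in WT library 2 (76.6), Klra7 in het library 2 (601, nearest 258) and Klrb1a in KO library 1 (180, nearest 111), and in lamina propria Ncr1 cells Klra1 was at 30.01 CPM in KO library 3 and 0 elsewhere.

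The remaining sums are of Cd4 T cells and held at most 12 UMIs of the gene. With Cd8a, epithelial WT library 2 was highest for Klrk1 (87.4 CPM), Klra1 (38.9) and Klrb1a (38.9), het library 3 for Klre1 (65.8) and Klra7 (47.0), KO library 3 for Klrc2 (4.28) and het library 1 for Klrg1 (2.75). Without Cd8a, epithelial WT library 3 was highest for Klrc2 (14.9 CPM), Klrk1 (35.8), Klra7 (2.98) and Klrg1 (26.9). In the lamina propria Klre1 was highest in KO library 3 (6.35), Klrk1 in WT library 3 (36.5), another ending with a weak hashtag, and Klrb1c in het library 2 (7.93), and in the colon Klrd1 in het library 2 (48.5) and Klra1 in het library 1 (12.8).

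Klrk1 in Cd8a Cd8b1 T cells was lower in KO than in WT in every epithelial library, by a mean of −2.57 CPM, and higher in every colon library, by 53.5 CPM. The epithelial levels were low, at 2.88 ± 0.59 CPM in KO and 5.44 ± 3.30 CPM in WT (SD, n = 3 each). The WT hashtag was weak in epithelium libraries 1 and 2. This was 1 flagged case among many pairs of gene and gate. The difference between the tissues was not tested.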

How the results depend on the processing

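Settings can change which members were tested, above all the filter on low counts, so counts may be out of different numbers of tests. Neither those numbers nor the shares of all genes passing are given. Members called, with the count given in the text in brackets, moved beyond 1.5 times as follows. DESeq2 called 5 in epithelial gamma-delta T cells (8), 1 for KO (0) and 3 for het (1) in epithelium. Without a filter on low counts 3, 2 and 4 were called in lamina propria gamma-delta, Cd8a-only T and Ncr1 cells (1 each), 15 for KO and 20 for het in epithelium, 2 for het in lamina propria (0), and 6 for KO and 1 for het in colon (0 each). With at least 30 cells the 3 lamina propria counts were 0, 0 and 3, and epithelium against lamina propria gave 12 (20); gates at 2 UMIs gave 0 for both lamina propria T cell contrasts. WT cells alone gave 1 for epithelium and 9 for colon against lamina propria (20 and 29). Without the 5% of cells with most UMIs 7 were called for KO and 6 for het in epithelium, with hashtag shares 4 and 3, and without the replicate block 3 for het; the block changed no other count by that much. Leaving out a library gave, for gamma-delta, Cd8a-only T and Ncr1 cells, 4 to 8, 6 to 8 and 7 to 8 in epithelium, 0 to 2, 0 to 0 and 1 to 3 in lamina propria and 3 to 5, 4 to 7 and 7 to 9 in colon, 1 to 2 for Cd4 Cd8a T cells (3), 13 to 18 for epithelium and 22 to 25 for colon against lamina propria, and 1 to 5 for KO and for het in epithelium; KO and het in the other tissues stayed at 0. Of 1065 alternative values of called ratios, 941 kept the call, 124 lost it and 0 changed sign, and of 498 alternative values of the 47 uncalled genotype ratios at an unadjusted p under 0.05, 70 passed and 0 changed sign. The causes of these shifts were not tested. Genotype was not fitted in epithelial Ncr1 cells, lamina propria Cd8a-only T cells or lamina propria and colon Cd4 Cd8a T cells, which had too few sums, and some settings gave no value where sums fell under the minimum. Depth limits low genes such as Klra1, Klrc2 and Klrg1 in the lamina propria, where only 2 members could be tested between populations.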
